A study of Mus musculus with 4 samples.

Results

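The genes described here are Igf1, its receptor Igf1r and 6 genes of the IGF-binding proteins, Igfbp2 to Igfbp7. They were taken by name, 8 of the 31053 features counted, from a list drawn up with earlier results of these data known. Igfbp1 and Igf2, with 0 to 5 UMIs (counted RNA molecules) in each class of at least 20 cells, are not among them and were read with the other genes of the pathway. They were read in single-cell libraries of the mouse pituitary, the gland below the brain that holds the hormone cells of the anterior lobe, the melanotrophs of the intermediate lobe and the pituicytes of the neural lobe. The 4 libraries came from wild-type (WT) mice and from mice with transgenic overexpression of p25 (p25OE) at 14 weeks and at 40 weeks, with 1 library per group. The same mixed strain label, with C57BL/6, B6 and CBA components and the mark BiTg, stands on each of the 4 samples. The labels name no promoter for the transgene and do not say whether glands were pooled. Papain was used to loosen the cells before capture, and the labels speak of 2 independent runs.

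Calpain cuts p35, which activates Cdk5, to give p25, and p35 is made from the mouse gene Cdk5r1. The level of Cdk5r1 over all kept cells was 10.8 CPM (UMIs of the gene scaled to a fixed total of all UMIs) in WT and 14.4 CPM in p25OE at 14 weeks, and 10.4 CPM and 17.5 CPM at 40 weeks. A UMI is a molecular barcode that marks 1 captured RNA molecule. Whether transgene reads count towards Cdk5r1 is not given in the sources used here.

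Cells with at least 500 detected genes and at most 20% mitochondrial UMIs were kept, 29899 in all. The libraries held 6579 (WT) and 7667 (p25OE) kept cells at 14 weeks and 7927 and 7726 at 40 weeks, with medians of 4940 to 10778 UMIs per cell. A gate on fixed marker genes, none of them an IGF gene, gave a class to 82.3% of the kept cells. Melanotroph-gated cells made up 8.44% and 24.1% of the kept cells in WT and p25OE at 14 weeks, and 8.41% and 87.1% at 40 weeks. The p25OE library at 40 weeks stood apart: beside 6728 melanotroph-gated cells it held 175 macrophage-gated, 67 lactotroph-gated and 62 somatotroph-gated cells, and 19 or fewer of every other gated class. The 2 libraries of 14 weeks shared 13 kept cell barcodes and those of 40 weeks shared 85, while pairs across ages shared 0 to 2. The barcodes at 14 weeks and at 40 weeks came from different barcode sets, so levels are compared within an age. With 1 library per group no statistical test was possible. Intervals are exact 95% Poisson or binomial intervals, which cover counting error only.

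IGF1 is a peptide hormone and local growth factor, and it signals through the tyrosine kinase receptor IGF1R. IGFBP2 to IGFBP6 bind IGFs with high affinity in the blood and between cells, where they can hold IGF away from the receptor or deliver it, while IGFBP7 binds IGFs with low affinity. Most IGF1 in blood comes from the liver under growth hormone, the product of the somatotrophs, and IGF1 in turn lowers growth hormone release from the pituitary.

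The genes lie on 6 chromosomes of GRCm38. Igf1 is at chr10:87858265-87937042 and Igf1r at chr7:67952827-68233668. Igfbp2 is at chr1:72824503-72852474, Igfbp3 at chr11:7206086-7213923, Igfbp4 at chr11:99041244-99054392, Igfbp5 at chr1:72857932-72874884, Igfbp6 at chr15:102144362-102149511 and Igfbp7 at chr5:77349240-77408041.

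Promoters of the 3 binding-protein genes whose levels in melanotroph-gated cells differed most between WT and p25OE on at least 100 UMIs are shown first. They are the 250 bases before the RefSeq start site on GRCm38.p6, read in the direction of the gene. Capitals mark a TATA box (TATAAA) or a GC box (GGGCGG), both searched on both strands, and no match overlapped another. Igfbp4 lies on chromosome 11 and has a TATA box 28 bases before its start. Igfbp2 and Igfbp5 are neighbours on opposite strands of chromosome 1, with a gap of 5457 bases between the annotated genes. The first start of Igfbp2 has GC boxes 37, 98 and 113 bases upstream, and the window of Igfbp5 holds neither motif. Of 32851 mouse promoter windows of this length, 12.4% hold a TATA box and 32.7% a GC box.
Igfbp4, chr11:99040994-99041243, plus strand: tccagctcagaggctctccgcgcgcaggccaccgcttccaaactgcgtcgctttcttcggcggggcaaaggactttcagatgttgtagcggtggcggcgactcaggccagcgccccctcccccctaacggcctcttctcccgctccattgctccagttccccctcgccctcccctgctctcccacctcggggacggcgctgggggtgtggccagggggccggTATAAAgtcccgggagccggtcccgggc
Igfbp2, chr1:72824230-72824479, plus strand: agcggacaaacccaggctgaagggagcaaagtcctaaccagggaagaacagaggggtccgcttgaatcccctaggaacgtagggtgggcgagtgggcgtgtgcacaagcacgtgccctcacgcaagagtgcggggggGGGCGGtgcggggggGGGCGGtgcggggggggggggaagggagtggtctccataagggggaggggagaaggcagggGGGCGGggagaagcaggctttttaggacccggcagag
Igfbp5, chr1:72874866-72875115, minus strand: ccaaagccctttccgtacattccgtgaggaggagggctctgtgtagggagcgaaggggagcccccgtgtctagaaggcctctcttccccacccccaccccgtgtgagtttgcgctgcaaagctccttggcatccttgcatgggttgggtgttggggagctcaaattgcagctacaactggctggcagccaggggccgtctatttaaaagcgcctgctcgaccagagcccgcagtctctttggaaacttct

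The gated classes that held the UMIs of each gene differed from gene to gene. Levels below are CPM over the summed UMIs of a class in a library, and classes with fewer than 20 cells in a library are left out of the order. The fibroblast-gated cells, 38 to 48 per library outside p25OE at 40 weeks, held the highest or second highest level of 5 of the 6 binding proteins in WT at 14 weeks. Their own markers, collagens and other matrix genes, summed to 9934 to 10905 CPM. Several of these classes are small, so each order rests on few cells.

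**Figure D1:**
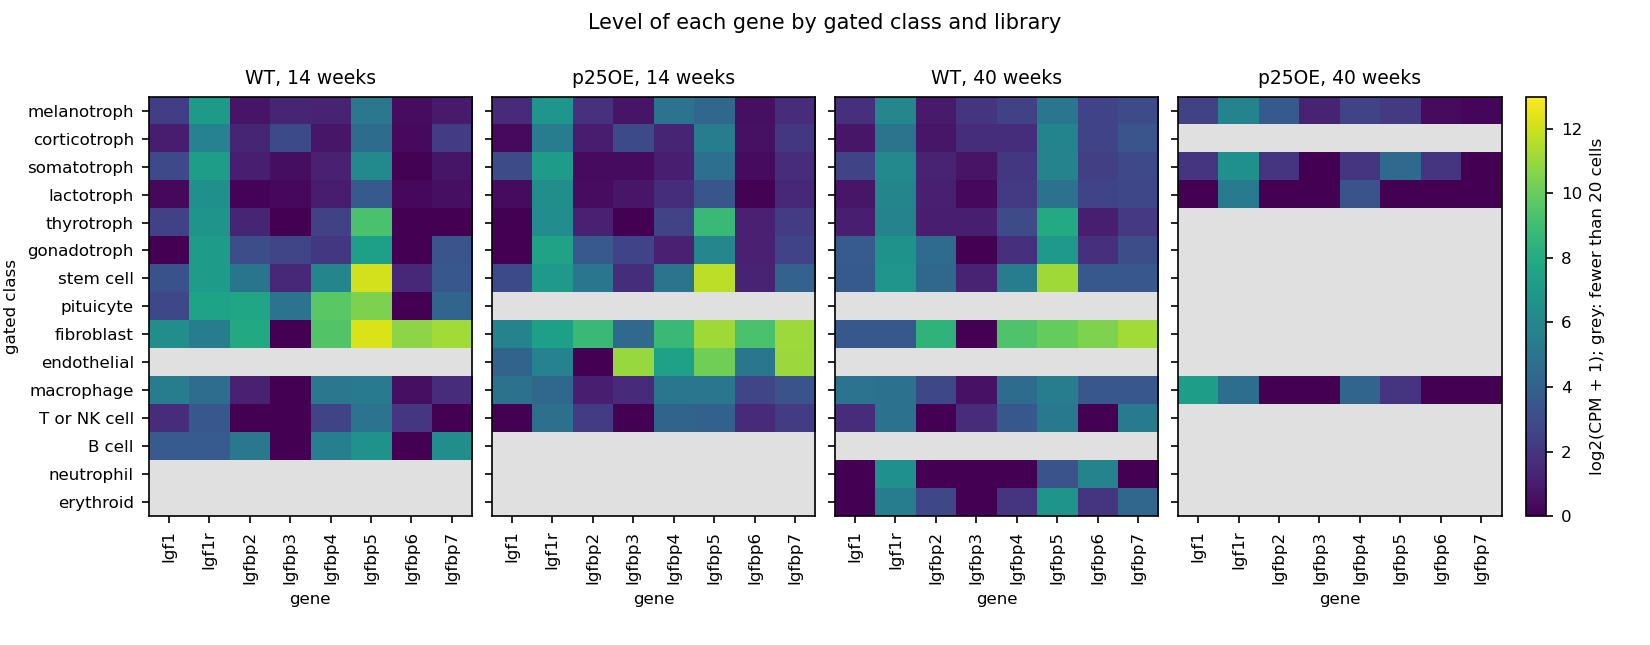
Level of the 8 genes (columns) in each gated class (rows) of the 4 libraries, as log2(CPM + 1); grey marks a class with fewer than 20 cells in that library. Igfbp5 was brightest in stem-gated and fibroblast-gated cells, Igfbp3 in the endothelial-gated cells of p25OE at 14 weeks, and Igf1r was seen in every hormone class.

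The ligand Igf1 was highest in fibroblast-gated and macrophage-gated cells at 14 weeks and in macrophage-gated cells at 40 weeks. In macrophage-gated cells its level was 44.2 CPM (36.1 to 53.7; 103 UMIs) in WT and 27.5 CPM (21.5 to 34.5; 73 UMIs) in p25OE at 14 weeks. At 40 weeks it was 30.04 CPM (22.6 to 39.1; 55 UMIs) in WT and 156 CPM (128 to 189; 105 UMIs) in p25OE. Fibroblast-gated cells had 86.03 CPM in WT and 55.3 CPM in p25OE at 14 weeks, on 16 and 8 UMIs, and these intervals overlapped those of the macrophage-gated cells. In WT at 40 weeks they had 10.8 CPM on 1 UMI, beside 12.4 CPM in gonadotrophs and 12.03 CPM in stem-gated cells. The somatotrophs had lower levels but held more of the molecules. Their level was 6.39, 7.10 and 5.37 CPM in WT at 14 weeks, p25OE at 14 weeks and WT at 40 weeks, and they held 31.3%, 34.4% and 32.4% of all Igf1 UMIs. In p25OE at 40 weeks 65.4% of the Igf1 UMIs lay in melanotroph-gated cells, which held 92.5% of the UMIs of all genes in that library.

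The receptor Igf1r was spread over the hormone classes and had no single source. At 14 weeks in WT it was at 184 CPM in pituicyte-gated cells, 156 in somatotrophs, 147 in gonadotrophs, 138 in stem-gated cells and 135 in melanotrophs. The interval of the pituicyte-gated cells (125 to 261) overlapped that of the somatotrophs, and those of gonadotrophs (123 to 174) and stem-gated cells (124 to 152) overlapped that of melanotrophs (128 to 142). Lactotrophs had 91.3 CPM, corticotrophs 52.9 and macrophages 24.5, each with an interval below that of melanotrophs. At 40 weeks in WT the order ran from stem-gated cells (111 CPM) and gonadotrophs (102) through somatotrophs (69.7), melanotrophs (64.9) and lactotrophs (60.5) to corticotrophs (31.0) and macrophages (27.9).

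Igfbp3, whose product is the main carrier of IGF1 in blood, belonged to the endothelial-gated cells wherever these were present in number. In p25OE at 14 weeks its level there was 2033 CPM (1876 to 2200), and 617 of the 800 Igfbp3 UMIs lay in 69 endothelial-gated cells, 77.1%. After every cell was thinned to 1000 UMIs, 77.8% (65.5 to 87.3) of the endothelial-gated cells held an Igfbp3 UMI, against 0.164% of the melanotrophs of the same library. In WT at 14 weeks 8 endothelial-gated cells held 56.4% of the 234 Igfbp3 UMIs. Pituicyte-gated cells of the same library had 29.7 CPM on 5 UMIs. The corticotrophs at 14 weeks had 6.55 CPM in WT and 6.48 CPM in p25OE, above the 1.55 and 0.639 CPM of melanotrophs.

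Most UMIs of Igfbp5 lay in stem-gated cells. Its level in stem-gated cells was 4456 CPM in WT and 3348 CPM in p25OE at 14 weeks, and 2235 CPM in WT at 40 weeks. Those cells held 52.2%, 68.9% and 50.3% of the Igfbp5 UMIs of their libraries, and at 1000 UMIs per cell 91.9%, 83.3% and 77.8% of them had an Igfbp5 UMI. Fibroblast-gated cells had 4893, 2287 and 960 CPM in the same libraries. Thyrotrophs stood out among the hormone cells with 613, 427 and 243 CPM, where somatotrophs had 74.0, 26.2 and 56.1 CPM.

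Igfbp6, a binding protein that prefers IGF2, and Igfbp7 were fibroblast-gated genes. The level of Igfbp6 in these cells was 1694 CPM in WT and 608 CPM in p25OE at 14 weeks and 1434 CPM in WT at 40 weeks, with 5.65 CPM or less in macrophages at 14 weeks. Igfbp7 was at 2361, 2218 and 2329 CPM in the fibroblast-gated cells of the same libraries and at 2116 CPM in the endothelial-gated cells of p25OE at 14 weeks. In that library the intervals of the 2 classes overlapped, on 321 and 642 Igfbp7 UMIs. WT had 8 endothelial-gated cells at 14 weeks and 6 at 40 weeks, too few to be placed in the order. The 2 fibroblast-gated cells of p25OE at 40 weeks held 30 of the 60 Igfbp7 UMIs and 17 of the 38 Igfbp6 UMIs of that library.

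Igfbp2 was highest in fibroblast-gated cells in the 3 libraries with at least 20 of them. Igfbp4 was highest there in p25OE at 14 weeks and WT at 40 weeks, and in WT at 14 weeks it was highest in pituicytes, the glia of the neural lobe, with an interval that overlapped that of the fibroblast-gated cells. In p25OE at 40 weeks, with 4 classes to compare, the highest level of Igfbp2 was in melanotrophs (11.8 CPM) and that of Igfbp4 in macrophages (17.8 CPM). The 10 stem-gated cells of that library, too few for the order, held 53 Igfbp2 UMIs, where 6728 melanotrophs held 659. Melanotrophs were thus highest in Igfbp2 only among the classes with at least 20 cells. Igfbp2 was at 237, 428 and 345 CPM in the fibroblast-gated cells of WT and p25OE at 14 weeks and WT at 40 weeks, at 196 CPM in the pituicyte-gated cells of WT at 14 weeks, and at 32.8, 32.9 and 19.0 CPM in stem-gated cells. Igfbp4 was at 715, 428 and 690 CPM in fibroblast-gated cells, at 826 CPM (694 to 975) in pituicyte-gated cells, and at 61.1, 31.4 and 44.4 CPM in stem-gated cells. Macrophages had 35.7 and 33.1 CPM of Igfbp4 at 14 weeks and 22.9 and 17.8 CPM at 40 weeks.

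**Figure D2:**
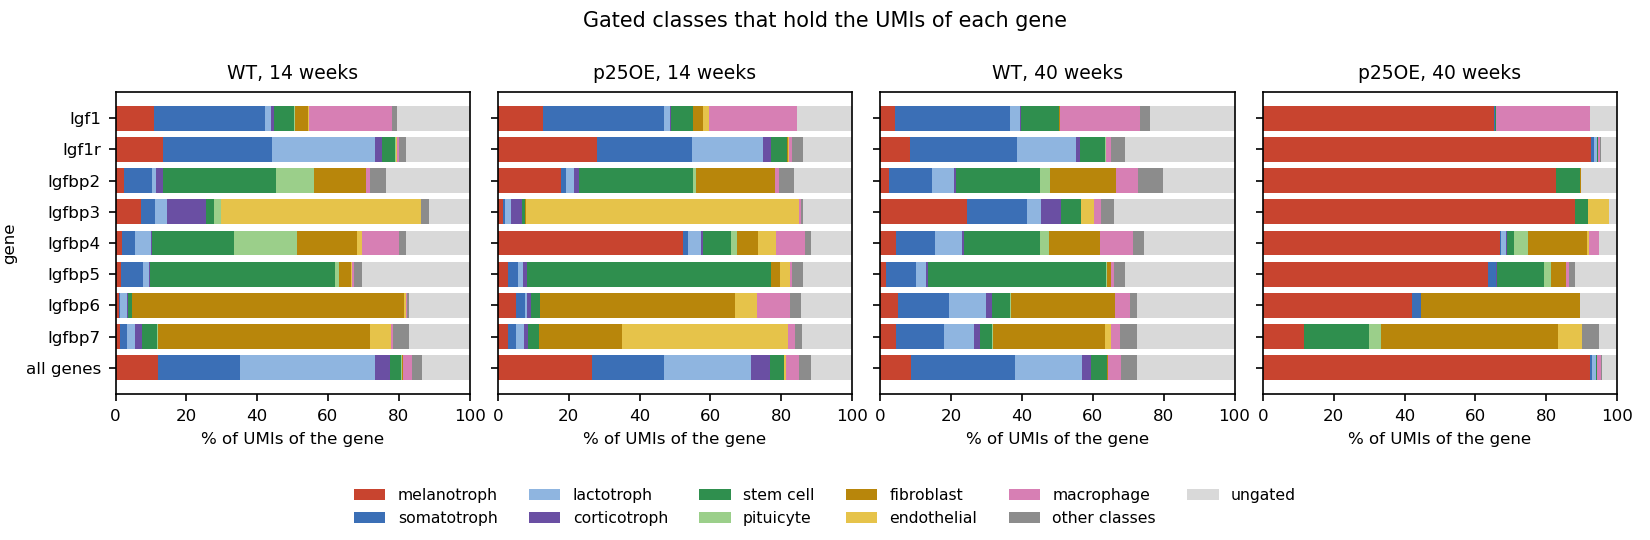
Percent of the UMIs of each gene (rows) held by each gated class (colours) in the 4 libraries, with the UMIs of all genes in the bottom row. Melanotroph-gated cells held 52.3% of the Igfbp4 UMIs of p25OE at 14 weeks, and at 40 weeks they held 82.7% of Igfbp2 and 11.7% of Igfbp7 against 92.5% of all UMIs.

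The question the design puts to these genes is how p25OE melanotrophs differ from WT melanotrophs of the same age. For this ratio the CPM were scaled so that the median gene of the class has the same level in every library (scaled CPM), and a gene was called higher or lower if the libraries lay at least 1.5-fold apart and together held at least 20 UMIs. At 14 weeks 7 of the 8 genes were measured: 3 were higher in p25OE, where 18.9% of the 14723 genes measured were, and 3 were lower, where 10.1% of genes were. At 40 weeks 2 of 8 were higher, against 20.1% of 15549 genes, and 5 were lower, against 20.2%. The median log2 ratio of the members was -0.52 at 14 weeks, where that of all genes was 0.05, and -1.11 at 40 weeks, where that of all genes was 0.00. Most melanotroph-gated cells of each library lay in clusters of their own: 477 of 555 in cluster 9 (WT, 14 weeks), 1505 of 1844 in cluster 16 (p25OE, 14 weeks), 491 of 667 in cluster 17 (WT, 40 weeks), and 3671 and 1987 of 6728 in clusters 8 and 21 (p25OE, 40 weeks).

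Igfbp4 had the largest ratio of the 7 genes measured in melanotrophs at 14 weeks. Its level was 1.37 CPM (15 UMIs) in WT and 29.7 CPM (557 UMIs) in p25OE at 14 weeks, and 4.67 CPM (20 UMIs) and 5.14 CPM (287 UMIs) at 40 weeks. At 14 weeks p25OE was far above WT, and at 40 weeks the intervals of the levels overlapped. On scaled CPM it was 18.6-fold higher than WT at 14 weeks (11.2 to 33.4), while the 40-week ratio was 0.840 (0.534 to 1.40) and took either sign over the alternatives. At 1000 UMIs per cell 0.182%, 2.24%, 0.450% and 0.546% of the melanotrophs of WT and p25OE at 14 weeks and of WT and p25OE at 40 weeks held an Igfbp4 UMI, and without thinning 2.16%, 10.5%, 2.40% and 3.37%. In p25OE at 14 weeks, at 1000 UMIs, it was in 0 of 1251 somatotrophs (median before thinning 11104 UMIs, against 8252 in melanotrophs), which allows a share of up to 0.240% at this depth, in 0.282% of lactotrophs and in 4.04% of macrophages. Without thinning 14 of 1254 somatotrophs, 1.12%, held an Igfbp4 UMI.

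The Igfbp4 UMIs of the p25OE melanotrophs at 14 weeks lay in 194 of 1844 cells. Of these, 95 held 2 or more and 33 held 5 or more, and the 10 highest cells held 139 of the 557. The holding cells had a median of 10862 UMIs against 7860 in the cells with 0, and 38.7% of them had UMIs of at least 2 of 10 mitosis genes against 19.5%. Their Pomc, the precursor of the melanotroph hormone α-MSH, was at 91520 CPM against 147119, and Pcsk2, an enzyme that cuts it, at 1522 against 1416. Of the 33 cells with 5 or more Igfbp4 UMIs, 51.5% had UMIs of at least 2 mitosis genes, and their Pomc was at 59423 CPM. Markers of the classes with high Igfbp4 were compared between holders and the rest. Fibroblast markers summed to 20.8 against 11.4 CPM, stem markers to 125 against 146 and macrophage markers to 133 against 119. Endothelial markers summed to 45.8 against 32.5 CPM and pituicyte markers to 27.2 against 27.9. Between the libraries, WT and p25OE melanotrophs at 14 weeks had 8.95 and 27.8 CPM of the 4 pituicyte markers. They had 9.50 and 34.4 CPM of the 8 endothelial markers, and 92.2 and 143 of the 8 stem markers. The 6 fibroblast markers summed to 12.2 and 12.7 CPM, and the 9 macrophage markers to 84.5 and 121. Their part in the result was not tested.

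Igfbp2 was higher in p25OE melanotrophs at both ages. Its level was 0.639 CPM (7 UMIs) in WT and 2.61 CPM (49 UMIs) in p25OE at 14 weeks, and 0.933 CPM (4 UMIs) and 11.8 CPM (659 UMIs) at 40 weeks. The p25OE library was the higher one at each age, and its intervals did not overlap those of WT. On scaled CPM the ratio was 3.503-fold (1.58 to 9.17) at 14 weeks and 9.65-fold (3.75 to 35.5) at 40 weeks. At 14 weeks the pituicyte markers, from a class with a high Igfbp2 level, were higher in p25OE melanotrophs too, as were the stem markers, at the levels given for Igfbp4. At 40 weeks the fibroblast and stem markers were lower in p25OE melanotrophs (2.97 and 82.5 CPM, against 35.01 and 183 in WT) and the pituicyte markers were at 7.33 against 6.07 CPM. Their part in the result was not tested. In p25OE at 40 weeks the UMIs lay in 396 cells, 17 of them with 5 or more, and the 10 highest cells held 15.9%. Of the Igfbp2 holders of that library 34.3% had UMIs of at least 2 mitosis genes, against 29.8% of the other cells, with stem markers at 94.7 against 81.6 CPM and Pomc at 110605 against 135603 CPM. The 17 highest holders had 150 CPM of stem markers, 15.02 CPM of fibroblast markers against 2.89 in cells with 0, 50.1 CPM of Igfbp5 against 3.08, and 84728 CPM of Pomc. At 1000 UMIs per cell 1.09% of these melanotrophs held an Igfbp2 UMI, against 0 of 168 macrophages of the same library, which allows a share of up to 1.79%. At this depth a difference between those shares was not detectable.

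Igf1r was lower in p25OE melanotrophs at both ages, past 1.5-fold at 40 weeks. Its level was 135 and 110 CPM in WT and p25OE at 14 weeks and 64.9 and 54.3 CPM at 40 weeks. WT was higher at each age by a narrow step that counting error does not cover. On scaled CPM the receptor was 1.43-fold lower (1.34 to 1.53) at 14 weeks and 1.57-fold lower (1.38 to 1.77) at 40 weeks. The 40-week step falls short of 1.5-fold in 3 of 11 alternatives, the farthest being plain CPM, at 1.19-fold lower.

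Igf1, the ligand, went in opposite directions at the 2 ages in melanotrophs. Its level was 4.38 CPM (48 UMIs) in WT and 1.97 CPM (37 UMIs) in p25OE at 14 weeks, and 2.33 CPM (10 UMIs) and 4.64 CPM (259 UMIs) at 40 weeks. It was 2.59-fold lower in p25OE (1.65 to 4.09) at 14 weeks and 1.52-fold higher at 40 weeks. The 40-week interval (0.812 to 3.20) spans equal levels, and 3 of 11 alternatives fall short of 1.5-fold there. Macrophage markers summed to 84.5 CPM in WT and 121 in p25OE melanotrophs at 14 weeks, and to 421 and 155 at 40 weeks. In p25OE the Igf1 holders had 194 CPM against 119 in the rest at 14 weeks, and 272 against 149 at 40 weeks. In WT the holders had less, 48.8 against 89.0 and 323 against 423. What part these markers had in the Igf1 ratios was not tested. Igfbp3 was lower in p25OE at both ages, on few UMIs: 2.83-fold (1.27 to 6.50; 17 and 12 UMIs) at 14 weeks and 2.96-fold (1.51 to 5.37; 13 and 75 UMIs) at 40 weeks. With classes from clusters the 14-week log2 ratio of Igfbp3 was 0.0498, with p25OE not lower. The 7 WT cells that held Igfbp3 at 14 weeks had 163 CPM of endothelial markers, against 7.41 CPM in the others, and the part of these in the result was not tested. In WT at 40 weeks 1 cell held 9 of the 13 Igfbp3 UMIs, and the 10 highest cells held all 13. Leaving out the 10 highest cells of each library thus left no WT UMI there. The value under that alternative, 1.49-fold lower, came from the floor of 3 counts in WT and gives no direction. Of the 75 in p25OE at 40 weeks, 72 lay in cluster 21, at 3.23 CPM against 0.106 CPM in cluster 8, and the 42 holding cells had 223270 CPM of Pomc and 4719 CPM of Pcsk2 against 132716 and 2629 in the others.

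**Figure D3:**
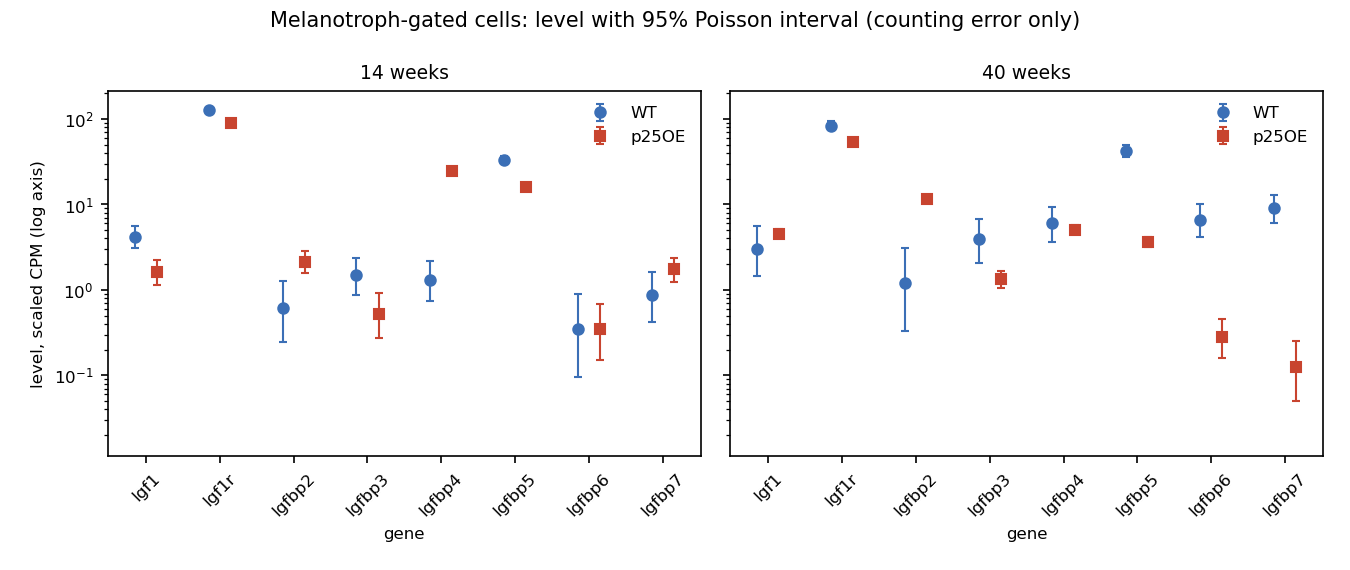
Level of the 8 genes in melanotroph-gated cells of WT (circles) and p25OE (squares) at 14 weeks (left) and 40 weeks (right), in scaled CPM on a log axis; bars are exact 95% Poisson intervals of counting error. Igfbp4 at 14 weeks stood at 1.31 in WT and 24.4 in p25OE, and Igfbp5 at 40 weeks at 42.5 and 3.62.

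Igfbp5, Igfbp6 and Igfbp7 were lower in p25OE melanotrophs at 40 weeks. Igfbp5 was at 32.9 CPM (141 UMIs) in WT and 3.67 CPM (205 UMIs) in p25OE, 11.7-fold lower on scaled CPM (9.41 to 14.6). Igfbp6 was at 5.13 and 0.287 CPM on 22 and 16 UMIs, 23.5-fold lower (11.8 to 47.8), and Igfbp7 at 7.0 and 0.125 CPM on 30 and 7 UMIs, 73.2-fold lower (31.5 to 197). These WT levels were not particular to melanotrophs. Somatotrophs, lactotrophs and macrophages of that library had 4.42, 5.13 and 10.4 CPM of Igfbp6, and 6.32, 6.09 and 10.4 CPM of Igfbp7. In p25OE at 40 weeks each of those classes held 0 or 1 UMI of either gene, where 3 counts equal 4.43 to 8.83 CPM. Markers of the classes with high levels of these genes differed in both directions in the same melanotrophs. The 6 fibroblast markers summed to 35.01 CPM in WT and 2.97 CPM in p25OE and the 8 stem markers to 183 and 82.5, while the 8 endothelial markers summed to 10.03 and 44.6 and the 4 pituicyte markers to 6.07 and 7.33. The 5 erythroid markers, hemoglobins in the main, of a class with 105 CPM of Igfbp5, summed to 1528 and 0.269. No marker of the fibroblast and stem lists was at 0 UMIs. Their part in the result was not tested.

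At 14 weeks Igfbp5 was at 35.1 CPM (384 UMIs) in WT and 19.4 CPM (365 UMIs) in p25OE melanotrophs, 2.10-fold lower on scaled CPM (1.82 to 2.43). This value rests on 10 cells of the WT library, which held 324 of its 384 UMIs, the highest of them 125. The 9 WT cells with 5 or more Igfbp5 UMIs had 1172 CPM of stem markers, where cells with 0 had 67.5 CPM. Without the 10 highest cells of each library Igfbp5 was 2.46-fold higher in p25OE, so its direction depends on those cells. With classes from clusters and with the stricter gate the log2 ratio was -0.08 and -0.09. At 1000 UMIs per cell 2.37% of WT and 2.24% of p25OE melanotrophs at 14 weeks held an Igfbp5 UMI, and 4.20% and 0.530% at 40 weeks. Macrophages held it in 2.43%, 3.35%, 4.10% and 0.595% of cells in the same order of libraries. The melanotroph shares lay below these in 3 libraries, and in WT at 40 weeks their intervals overlapped (2.81 to 6.01 and 2.74 to 5.87). No melanotroph share of Igfbp5 stood above that of macrophages beyond counting error, and whether these shares stand for expression was not tested. Igfbp7 at 14 weeks was at 0.914 and 2.13 CPM on 10 and 40 UMIs, 2.002-fold higher in p25OE with an interval (0.984 to 4.49) that spans equal levels, and Igfbp6 had 4 and 8 UMIs and was not measured.

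**Figure D4:**
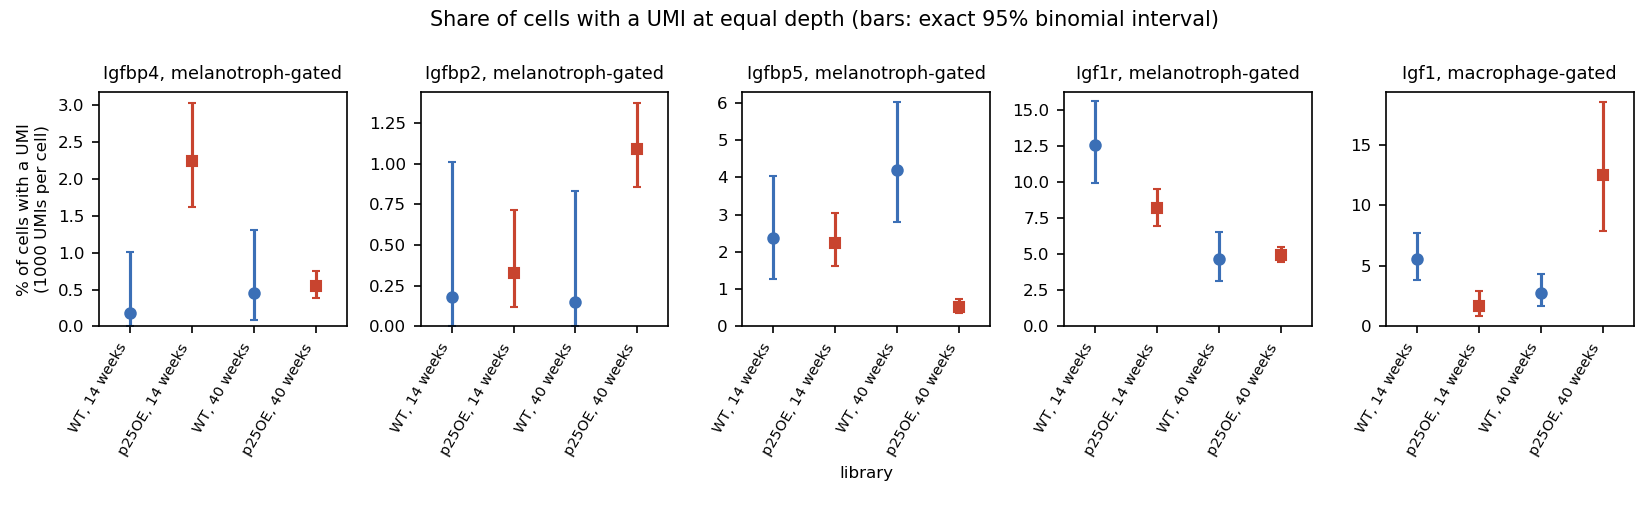
Percent of cells with at least 1 UMI after thinning each cell to 1000 UMIs, for Igfbp4, Igfbp2, Igfbp5 and Igf1r in melanotroph-gated cells and Igf1 in macrophage-gated cells, in WT (circles) and p25OE (squares); bars are exact 95% binomial intervals and each panel has its own axis. Igfbp4 was in 2.24% of p25OE melanotrophs at 14 weeks, and Igf1 in 12.5% of p25OE macrophages at 40 weeks.

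RNA released from other cells gives UMIs in cells that do not express a gene, and within a library 1 source keeps its genes in 1 ratio in every class. The source class is the class with the highest level of the gene. The level in melanotrophs was taken as a percent of that in the source class, beside the same percent for the markers of that class. This was done where the source class had at least 20 cells and 20 UMIs of the gene. It also had to be the stem, fibroblast, endothelial, macrophage, pituicyte, somatotroph or thyrotroph class. Igf1r in p25OE at 14 weeks, highest in gonadotrophs, and Igf1 at 14 weeks, on 16 and 8 UMIs in fibroblast-gated cells, were thus not compared. Of 21 such comparisons, 6 lay above every marker. The same markers set the gate, which leaves out cells with a high score of another class, and no IGF gene entered it. Marker percents in melanotrophs can thus be lowered by selection. A place above every marker therefore does not by itself tell expression from released RNA, and the same limit holds for counts per 100 marker UMIs. Igfbp4 in p25OE at 14 weeks was 1 of them: melanotrophs had 6.93% of the fibroblast level, where the fibroblast markers ranged from 0.0390% to 0.707%. Per 100 fibroblast marker UMIs there were 4.31 Igfbp4 UMIs in fibroblast-gated cells and 233 in melanotrophs, and per 100 endothelial marker UMIs 1.64 and 86.4. In WT at 14 and at 40 weeks Igfbp4 lay within the range of the markers, at 0.166% of the pituicyte level and 0.676% of the fibroblast level.

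Igf1r lay above every marker in each of its 3 comparisons, at 58.7% to 73.2% of the source level. Igf1 did so in both of its comparisons, at 40 weeks. It was at 7.77% of the macrophage level in WT and 2.97% in p25OE, where the highest macrophage marker was at 5.42% and 2.93%. The WT value rests on 10 melanotroph UMIs, at 2.33 CPM (1.12 to 4.29), and the p25OE value is almost level with the highest marker. These percents have no interval, so neither Igf1 step was shown to exceed counting error. Igfbp2, Igfbp3, Igfbp5, Igfbp6 and Igfbp7 lay at or below the highest marker in each of their 13 comparisons. Against the median marker they fell on both sides. In WT at 14 weeks the median fibroblast marker was at 0.0319% and the highest at 0.829%, with Igfbp5 at 0.717% and Igfbp6 at 0.0216%. A place under the highest marker thus does not tell released RNA from expression. Igfbp2 in p25OE at 40 weeks could not be compared in this way, since that library has 2 fibroblast-gated and 10 stem-gated cells. Its melanotrophs held 659 Igfbp2 UMIs beside 166 UMIs of the 6 fibroblast markers together. Per 100 stem marker UMIs they held 14.3 Igfbp2 UMIs and the 10 stem-gated cells 14.2, where the stem-gated cells of the other libraries held 0.200 to 0.522.

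**Figure D5:**
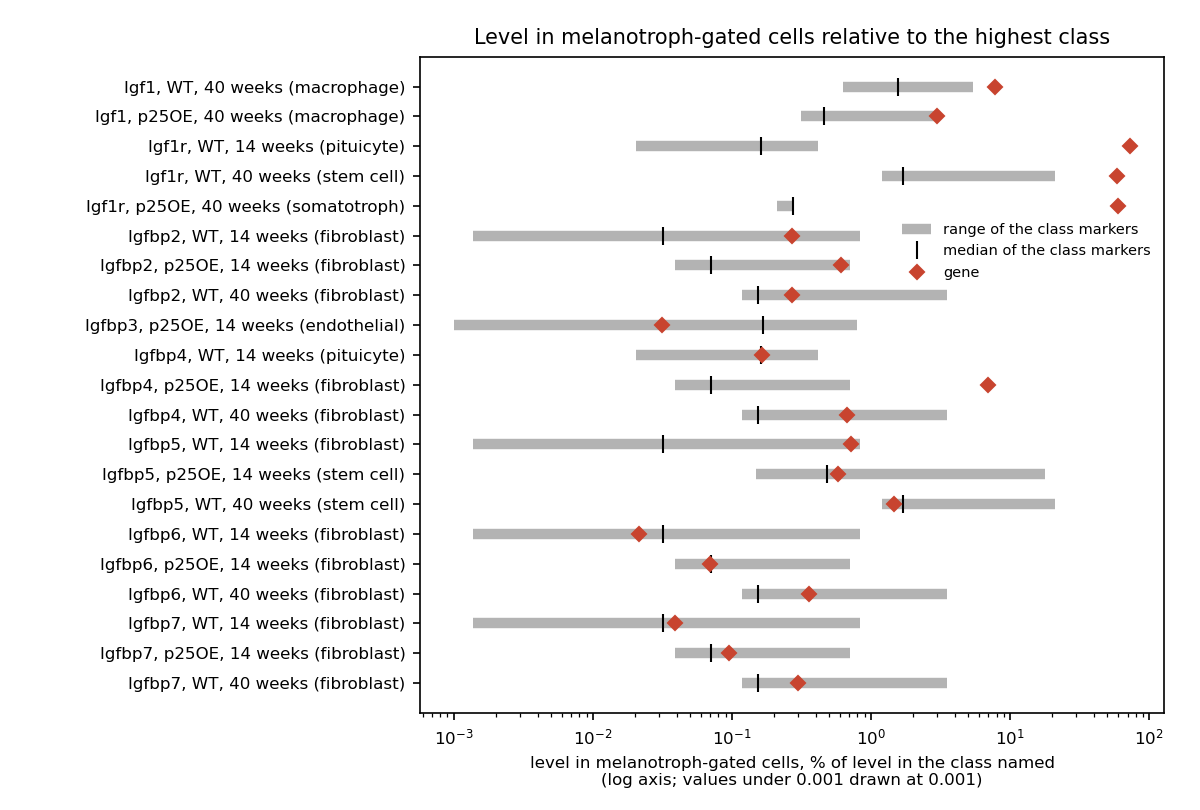
Level in melanotroph-gated cells as a percent of the level in the class with the highest level (named at left), on a log axis. The genes and libraries are those that met the limits given in the text. Grey bars span the markers of the class named and black ticks their median. The diamond of Igfbp4 in p25OE at 14 weeks, at 6.93%, lies to the right of its bar, as do those of Igf1r, while Igfbp5, Igfbp6 and Igfbp7 lie on theirs.

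In macrophage-gated cells Igf1 was higher in p25OE at 40 weeks. On scaled CPM it was at 35.3 in WT and 145 in p25OE, 4.11-fold higher (2.94 to 5.80). At 14 weeks it was at 42.5 and 26.2, 1.62-fold lower (1.19 to 2.22). The 105 UMIs of p25OE at 40 weeks lay in 49 of 175 cells, with at most 8 in a cell. At 1000 UMIs per cell 5.55%, 1.67%, 2.78% and 12.5% of the macrophages of WT and p25OE at 14 weeks and of WT and p25OE at 40 weeks held an Igf1 UMI, against 0.455% of the melanotrophs of p25OE at 40 weeks and 0 of 178 T or NK cells of WT at 40 weeks, which allows up to 1.69%. The macrophages of the 40-week libraries lay in different clusters, 650 of 685 WT cells in cluster 18 and 170 of 175 p25OE cells in cluster 7. Cluster 7 also held most macrophages at 14 weeks, where its Igf1 level was 46.7 CPM in WT and 33.7 CPM in p25OE. Of 5 members measured in macrophages at 14 weeks 1 was higher, against 9.78% of genes, and 1 lower, against 8.92%, and of 4 at 40 weeks 1 was higher, against 16.1%, and 2 lower, against 18.7%. The lower ones at 40 weeks were Igfbp5, 19.3-fold (5.18 to 162) on 83 and 2 UMIs, and Igfbp4, 1.63-fold (0.841 to 3.395) on 42 and 12.

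Stem-gated cells could be compared at 14 weeks. There 1 of 6 measured members was higher, where 9.04% of genes were, and 1 was lower, where 7.04% were. Igfbp4 was at 55.6 scaled CPM in WT and 29.5 in p25OE, 1.88-fold lower (1.45 to 2.47), opposite to its direction in melanotrophs of the same libraries. Igfbp5 was at 4056 and 3146 scaled CPM, a 1.29-fold step (1.26 to 1.32), and Igfbp7 was 1.59-fold higher with an interval (0.979 to 2.60) that spans equal levels.

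In somatotrophs at 14 weeks 1 of 6 measured members was higher, against 9.48% of genes, and 2 were lower, against 7.36%. Igfbp5 was at 80.1 scaled CPM in WT and 27.7 in p25OE, 2.89-fold lower (2.58 to 3.25), Igfbp2 was 4.08-fold lower on 24 and 4 UMIs, and Igfbp7 3.25-fold higher on 14 and 31 UMIs. The same class held Igf1 at 6.92 and 7.49 and Igf1r at 169 and 146 scaled CPM, both within 1.5-fold. In lactotrophs 3 of 5 were higher, against 13.6% of genes, and 0 were lower, against 5.85%, at levels of 0.821 to 2.40 scaled CPM in p25OE for Igfbp3, Igfbp4 and Igfbp7. Igfbp5 was 1.89-fold higher (1.45 to 2.47) in corticotrophs, the 1 of 4 measured members that was higher, against 11% of genes, with 0 lower against 6.22%. It was 2.64-fold lower (1.90 to 3.71) in gonadotrophs, the 1 of 2 measured members that was lower, against 10.2%, with 0 higher against 17.8%. In T or NK cells Igf1r was higher on 10 and 14 UMIs and Igfbp5 lower on 28 and 8, each 1 of 2 members measured, against 10% and 14.5% of genes.

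At 40 weeks the 62 somatotroph-gated and 67 lactotroph-gated cells of p25OE held 0 to 7 UMIs of each member except Igf1r. In somatotrophs 1 of 7 measured members was higher, against 25.7% of genes, and 4 were lower, against 19.6%. Igf1r was at 75.7 (WT) and 73.5 (p25OE) scaled CPM. Igfbp5 there was at 60.9 and 16.6, 3.67-fold lower (1.77 to 9.15) on 825 and 7 UMIs. In somatotrophs Igf1, Igfbp4 and Igfbp6 were past 1.5-fold lower and Igfbp2 past 1.5-fold higher, each on 1 UMI in p25OE and with an interval that spans equal levels. In lactotrophs 1 of 5 was higher, against 20.4% of genes, and 2 were lower, against 20.5%. They had 258 Igfbp5 UMIs in WT and 0 in p25OE, at least 6.34-fold lower if 3 counts are taken for the 0, and Igf1r was 1.60-fold lower (1.08 to 2.48). Igfbp4 was 2.39-fold higher in lactotrophs on 34 and 6 UMIs, with an interval (0.822 to 5.77) that spans equal levels.

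Sums over all kept cells mix the number of cells of each class with their levels, so fewer cells of a type and less RNA per cell cannot be told apart. At 14 weeks 2 members were higher in p25OE, where 14.7% of 18427 genes were, and 2 were lower, where 8.94% were. Igfbp3 was 3.69-fold and Igfbp7 2.01-fold higher, in a library with 69 endothelial-gated cells against 8 in WT. Igfbp5 was 1.76-fold and Igfbp6 2.37-fold lower, where p25OE held 455 stem-gated and 38 fibroblast-gated cells and WT 349 and 48. At 40 weeks Igfbp2 was 2.63-fold higher, 1 of 8 where 23.1% of genes were higher, and 5 were lower, where 23.7% were. These were Igfbp5 (52.2-fold), Igfbp6 (20.8-fold), Igfbp7 (19.9-fold), Igfbp4 (1.84-fold) and Igf1r (1.81-fold), in a library with 10 stem-gated cells against 404 and 2 fibroblast-gated cells against 39.

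The other genes of the pathway, 42 in a fixed list, were read in melanotrophs. At 14 weeks 33 were measured, 3 higher in p25OE, where 18.9% of all genes were, and 3 lower, where 10.1% were. At 40 weeks 34 were measured, 2 higher against 20.1% and 8 lower against 20.2%. The median log2 ratio of the list was 0.19 and -0.17 at the 2 ages. Pik3r1, the regulatory subunit of the PI3 kinase that acts below the receptor, was higher at both ages. At 14 weeks it was at 39.8 scaled CPM in WT against 69.7 in p25OE, 1.75-fold higher (1.58 to 1.95), and at 39.2 and 65.7 at 40 weeks, 1.68-fold higher (1.41 to 2.01). Grb10, an adaptor that dampens signalling from the IGF1 and insulin receptors, was lower at both ages on few UMIs, 1.73-fold (0.984 to 3.03; 26 and 30 UMIs) and 1.84-fold (0.711 to 4.01; 7 and 65 UMIs), with intervals that span equal levels.

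Among the proteases that cut binding proteins and their inhibitors, 3 were measured at 14 weeks, 2 of them lower and 1 higher. Stc2, an inhibitor of the PAPP-A proteases, was 1.90-fold lower (1.43 to 2.53) at 14 weeks. Pappa2, 1 of these proteases, was the other lower gene, at 2.56 CPM in WT and 1.17 CPM in p25OE on 28 and 22 UMIs. Htra1, a serine protease with 291 CPM in the pituicyte-gated cells of WT at 14 weeks, was 1.79-fold higher (0.752 to 4.89) on 7 and 25 UMIs at 14 weeks and 1.55-fold lower (0.177 to 6.31) on 2 and 22 UMIs at 40 weeks, both with intervals that span equal levels. Stc1, a relative of Stc2, was 2.62-fold higher at 40 weeks on 3 and 134 UMIs, with an interval (0.876 to 12.8) that spans equal levels. In the growth hormone axis Ghr, the growth hormone receptor, was 1.63-fold higher (1.31 to 2.05) at 14 weeks, while at 40 weeks the signal carriers Stat5a, Stat5b and Jak2 were 1.99-fold (1.45 to 2.67), 1.65-fold (1.27 to 2.12) and 1.57-fold (1.09 to 2.20) lower. Irs1, a docking protein of the IGF1 receptor, was 3.51-fold lower (2.11 to 5.59) at 40 weeks, and Gab1, an adaptor of receptor tyrosine kinases, 1.63-fold lower (1.26 to 2.08). The receptors Igf2r and Insr stayed within 1.5-fold at both ages. Igf2, Ins1 and Ins2, the other ligands of the list, had 0 to 5 UMIs in the melanotrophs of any library.

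Genes most like each member were found over 32 units of library and class with at least 50 cells, among 13266 genes, by Pearson correlation of log2(CPM + 10); units of 1 library share their depth and released RNA. For Igfbp3 they were Esam (r = 0.99), Emcn (0.99) and Ptprb (0.98), endothelial genes of which the first 2 are gate markers. For Igfbp5 they were Rbpms (0.95) and Cyp2f2 (0.93), both stem gate markers, and Lamb2 (0.92), a laminin chain. Igf1 was most like Clec4n (0.92), a C-type lectin of myeloid cells, Rab7b and Renbp, and Igfbp7 most like Fabp4 (0.95), Hspg2 and Ramp2. Lower values were found for Igf1r with Sdk1 (0.90), Igfbp2 with Crym (0.90), Igfbp4 with Ifi44 (0.89) and Igfbp6 with Lrg1 (0.80). Between members the highest was Igfbp3 with Igfbp7 (0.93), followed by Igfbp6 with Igfbp7 (0.77). Fibroblast-gated and pituicyte-gated cells, fewer than 50 in each library, entered no unit. Endothelial-gated cells entered as 1 unit, the 69 cells of p25OE at 14 weeks, so the values for Igfbp3 and Igfbp7 rest largely on that unit.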

How the data were processed

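Single-cell RNA libraries of mouse pituitary, 1 per group, were deposited by the authors as matrices of raw UMI counts per gene and barcode. Cell Ranger 3.0.2 and the build mm10 are named in the submitters' processing notes; version 3.0.1 stands in the file headers. Barcodes with at least 500 genes and at most 20% mitochondrial UMIs were kept. Library totals were 53714895 to 95242353 UMIs. A cell was given a class from the mean scaled level of fixed markers if the best class scored at least 0.1 and led the second by 1.5 times. Scrublet called 26 doublets, too few to have worked, so its scores served in an alternative only. Clusters (Leiden, resolution 1, scanpy 1.11.5) on 30 principal components and 15 neighbours were a second route to classes. Ratios of summed counts were scaled by median-of-ratios factors over the 4 libraries, or over those with at least 50 cells of the class; TMM factors came from edgeR 4.0.16. The fold measure was tested on simulated data. A fold against a count of 0 uses a floor of 3 counts in that library. Cells were thinned to 1000 UMIs for shares.

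The genes named are the 8 members, the other pathway genes at least 1.5-fold apart at both ages or with at least 50 UMIs in a melanotroph class, and the 3 genes most like each member. Pappa2 is named as well, beside Stc2. The members and lists were chosen with earlier results of these data known. Alternatives tried were plain CPM, TMM, no UMI minimum, stricter cell filters, a stricter gate, clusters, doublet scores, per-cell means, and leaving out cells with mitosis genes or with markers of non-hormone classes. Leaving out the 10 cells per library highest in the member, and the macrophage alternatives, were chosen after seeing the data.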

Additional observations from a re-analysis of the deposited data

Results flagged for a closer look

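Members whose p25OE over WT ratio was at least 1.5-fold higher at one age and at least 1.5-fold lower at the other are listed here, and ratios that fell short of 1.5-fold at either age are left out; the difference between ages was not tested. Igf1 in melanotrophs had a ratio of 0.386 at 14 weeks and 1.52 at 40 weeks, the latter with an interval that spans equal levels. Igf1 in macrophages had ratios of 0.616 and 4.11. Igfbp7 in melanotrophs had ratios of 2.002 and 0.0137, and over all kept cells 2.01 and 0.0502. Igfbp2 in somatotrophs had 0.245 and 1.53, the second on 1 UMI in p25OE with an interval (0.0370 to 9.52) that spans equal levels.

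Barcodes that were not kept also held signal. In the 7351 left-out barcodes of p25OE at 14 weeks Igfbp7 was at 34.6 CPM (30.3 to 39.3), against 19.1 CPM in the left-out barcodes of WT and 19.4 CPM in the kept cells of p25OE. Left-out barcodes exceeded kept cells in WT as well, with 19.1 against 8.01 CPM at 14 weeks and 46.1 against 13.7 CPM at 40 weeks.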

How the results depend on the processing

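No paired analysis was possible because each group has 1 library. In melanotrophs Igfbp4 at 14 weeks stayed higher under its 11 alternatives (17.7-fold to 103-fold), as did Igfbp2 at 40 weeks (7.25-fold to 13.3-fold). The 103-fold came without the 10 cells per library highest in Igfbp4, which held 13 of its 15 WT UMIs. For Igfbp2 at 40 weeks those cells held all 4 WT UMIs, so the value came from the floor. With so few WT UMIs left, that alternative does not test either result. Igf1 in macrophages at 40 weeks was 3.85-fold to 5.20-fold higher over 11 settings. The log2 ratio of Igfbp5 at 14 weeks reversed to 1.18 without the 6% highest doublet scores and to 1.30 without the 10 cells highest in it, and that of Igfbp3 to 0.0498 with classes from clusters; the cause was not tested. Igf1 in melanotrophs at 40 weeks kept its call in 8 of 11. Among these was the alternative without the 10 highest cells, which held all 10 WT UMIs, so it gives no direction.

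The count of members lower at 14 weeks went from 3 to 1 with clusters, with the stricter gate and without the 10 highest cells. Cells free of non-hormone markers numbered 84 and 211 at 14 weeks, where only Igf1r was measured, at 1.83-fold lower in p25OE. That alternative thus counted 1 lower and 0 higher, and it does not bear on the calls of Igfbp4, Igfbp2 and the other members. It gave no value at 40 weeks, with 2 WT cells. At 40 weeks the count higher was 1 without the highest doublet scores, with per-cell means and without mitosis cells. The count lower was 1 without the 10 highest cells, where Igfbp6 and Igfbp7 were not measured. With clusters 5 of 8 members kept their highest class in WT at 14 weeks. With at least 50 cells per class it was 0 there, 3 in p25OE at 14 weeks and 4 in WT at 40 weeks, since fibroblasts and pituicytes then drop out. Of 64 shares at other depths 41 moved, by construction. Single libraries and few UMIs limit these values: Igfbp2 in WT melanotrophs rests on 7 and 4 UMIs.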
